A study of Mus musculus with 4 samples.

Results

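Metallothioneins and genes induced by glucocorticoids were measured in the hippocampus of Dp(10)2Yey and WT mice by droplet single-cell RNA sequencing. The 10 genes are Mt1, Mt2, Mt3, Fkbp5, Tsc22d3, Sgk1, Per1, Ddit4, Klf9 and Cdkn1a, chosen by name from the 31055 genes of the count tables, and all 10 were found there. Dp(10)2Yey mice carry a duplication of a segment of mouse chromosome 10 on a C57BL/6J background, so every one of their cells is affected, and their WT littermates carry no duplication. All animals were males aged 3 months, with 1 mouse per library and 2 libraries per genotype. The hippocampi were dissociated with enzymes at a warm temperature before capture, on 2 days with 1 mouse of each genotype per day, and the sources used here do not say which replicate numbers share a day.

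Metallothioneins are small cysteine-rich proteins that bind zinc and copper. Mt1 and Mt2 are induced in many tissues by metals, oxidative stress and glucocorticoids through metal response elements and glucocorticoid response elements, whereas Mt3 is the brain form and is not known for strong induction by these signals. Corticosterone, the stress hormone of mice, enters cells and binds the glucocorticoid receptor, which moves to the nucleus and raises transcription of targets such as Fkbp5, a chaperone that lowers the receptor's sensitivity, and Tsc22d3, which encodes the anti-inflammatory protein GILZ. Sgk1 encodes a kinase that controls ion transport, Per1 a circadian clock repressor, Ddit4 an inhibitor of the growth kinase complex mTORC1, Klf9 a zinc-finger transcription factor and Cdkn1a the cell cycle inhibitor p21. Several of them also answer to other signals: Cdkn1a to p53, Per1 to the clock and Ddit4 to hypoxia and amino acid shortage.

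The 3 metallothionein genes lie next to one another on chromosome 8 (GRCm38): Mt3 at chr8:94152607-94154146, Mt2 at chr8:94172664-94173568 and Mt1 at chr8:94179082-94180327, all on the plus strand. Sgk1 (chr10:21882184-21999903) and Ddit4 (chr10:59949669-59951834) are on chromosome 10 but outside the duplicated segment, and the other members are on chromosomes 11, 17, 19 and X, so none of the 10 has an extra gene copy in Dp(10)2Yey mice. The sequences below are the 250 bases before an annotated start in RefSeq (GRCm38.p6) of the 3 neighbouring metallothionein genes, and of Sgk1, the only member with a full glucocorticoid response element palindrome in its window. Capitals mark the motifs found on either strand: the metal response element core in Mt2 and Mt1, and in Sgk1 the E-box CACGTG and the palindrome made of AGAACA and TGTTCT with 3 bases of any kind between them.

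Mt3 (chr8:94152357-94152606, plus strand): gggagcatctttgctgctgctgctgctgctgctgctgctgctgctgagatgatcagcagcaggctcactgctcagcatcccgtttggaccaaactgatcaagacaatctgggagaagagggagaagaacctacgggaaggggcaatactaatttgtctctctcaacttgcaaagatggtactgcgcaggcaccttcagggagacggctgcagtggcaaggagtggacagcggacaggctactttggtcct
Mt2 (chr8:94172368-94172617, plus strand): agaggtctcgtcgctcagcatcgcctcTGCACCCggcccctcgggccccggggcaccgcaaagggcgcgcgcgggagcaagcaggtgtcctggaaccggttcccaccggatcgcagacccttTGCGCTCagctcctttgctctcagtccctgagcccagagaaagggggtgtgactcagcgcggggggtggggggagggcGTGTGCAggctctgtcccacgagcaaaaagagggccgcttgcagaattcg
Mt1 (chr8:94178839-94179088, plus strand): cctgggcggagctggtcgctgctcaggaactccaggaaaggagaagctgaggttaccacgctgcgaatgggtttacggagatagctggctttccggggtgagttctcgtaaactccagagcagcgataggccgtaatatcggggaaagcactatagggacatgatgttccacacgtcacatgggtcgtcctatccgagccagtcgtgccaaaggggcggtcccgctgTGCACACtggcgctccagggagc
Sgk1 (chr10:21993640-21993889, plus strand): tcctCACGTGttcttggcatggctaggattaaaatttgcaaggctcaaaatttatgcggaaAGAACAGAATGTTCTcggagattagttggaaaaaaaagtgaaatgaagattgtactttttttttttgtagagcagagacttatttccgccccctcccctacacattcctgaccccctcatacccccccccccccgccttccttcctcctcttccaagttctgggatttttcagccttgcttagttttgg

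The metal response element core, written TGCACNC or TGCGCNC, occurred 3 times in the Mt2 window, once in that of Mt1 and not in that of Mt3. At least 1 such match was present in 21.4% of the 32851 RefSeq windows, and 3 or more in 1.26%. The palindrome was at bases -189 to -175 of 1 of the 6 Sgk1 windows, and only 3 of the 32851 windows (0.00913%) held it. Ddit4 and 1 of the 2 Per1 windows had 1 metal response element core each, and E-boxes, which the clock proteins bind, were found for Sgk1, Per1 and Fkbp5 (6.02% of windows). For Mt2 and Mt1 the RefSeq start differs from the gene start given above. Sequence outside the windows was not searched, so the counts are not those of whole promoters. Letters that match are a description of these windows and not of binding.

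After removal of 32 red blood cell barcodes, 6249 cells remained: 1018 and 1682 in the WT libraries and 1350 and 2199 in the Dp(10)2Yey libraries. The libraries held 2939108 to 8838437 UMIs (unique molecular identifiers, each standing for 1 captured RNA molecule), with WT replicate 1 the shallowest at a median of 2081.5 UMIs per cell against 3386.5 to 3688.5 in the others. Clusters were named from marker genes as microglia-like, astrocyte-like and so on, and the suffix is left out from here. There were 10 named classes with at least 10 cells in every library, and cluster 3 (569 cells, median depth 800 UMIs) stayed unnamed for its low RNA content and is called the low-RNA cluster. It was led by the microglia genes Tyrobp and Cst3 and by haemoglobin genes. The larger microglia cluster was led by Atf3, Il1a and Nfkbiz, genes of acute activation that warm dissociation is known to raise. Neurons had a median of 27.8% mitochondrial UMIs. WT replicate 1 stood apart in the ependymal class, with 58 of 124 cells at a median of 1085 UMIs against 4365 to 9686.5 in the other libraries. In the border macrophage class, the 7 neutrophil markers summed to 0 CPM in both WT libraries and to 44670 and 12310 CPM in Dp(10)2Yey replicates 1 and 2. Genes of the duplicated segment checked the labels: 29 of 31 tested were above WT in Dp(10)2Yey cells, with a median log2 fold change of 0.57 against -0.005 over all genes. Levels below are CPM, the UMIs of a gene in a class and library scaled to a fixed total for that class and library. Because 1 molecule gives 1 UMI near the 3′ end of a transcript, they do not scale with transcript length.

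Mt1 was highest in astrocytes. Its level there was 10080 and 12230 CPM in the WT libraries, and 11310 and 11570 CPM in the Dp(10)2Yey libraries, with replicate 1 named before replicate 2 here and below. These are about 1% of all UMIs in the class, and the genotypes overlapped. Ependymal cells, which line the ventricles, followed at a mean of 8196 ± 599 CPM (SD, n = 4), with no overlap between the ranges of these classes. Border macrophages, neurons, endothelial cells, microglia and oligodendrocytes came next, at means of 2420, 2019, 1128, 1059 and 990 CPM, and each overlapped its neighbour in that order. Lower still were the low-RNA cluster at 669 CPM and the choroid plexus at 601 CPM.

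Mt2 had the same leading classes at a lower level. It was at 1951 and 2578 CPM in WT astrocytes and at 2303 and 1877 CPM in Dp(10)2Yey astrocytes, and at 1189 ± 160 CPM (SD, n = 4) in ependymal cells. Below them, neurons, immature neurons, endothelial cells and border macrophages stood between 257.5 and 305.6 CPM and overlapped. Over all libraries there were 4.52 Mt2 UMIs per 100 Mt1 UMIs in the choroid plexus, 4.54 in microglia, 6.74 in oligodendrocytes and 9.04 in border macrophages, against 18.8 in astrocytes, 23.7 in endothelial cells and 54.8 in immature neurons. The range over libraries was 0 to 8.70 in the choroid plexus, 3.96 to 5.68 in microglia and 5.84 to 7.96 in oligodendrocytes, all below the 16.2 to 21.1 of astrocytes. Border macrophages overlapped astrocytes, at 8.13 to 27.0, with WT replicate 1 the highest.

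Mt3 followed another order. Ependymal cells held most, at 10320 and 11870 CPM in the WT libraries and 12490 and 15700 CPM in the Dp(10)2Yey libraries. Astrocytes were next at 8846 ± 734 CPM (SD, n = 4), then choroid plexus epithelium at 5510 ± 885, neurons at 2717 ± 561 and oligodendrocyte precursors at 895.6 ± 142, and none of these 5 classes overlapped the next one in the order. In the choroid plexus, the epithelium that makes cerebrospinal fluid, there were 907 Mt3 UMIs per 100 Mt1 UMIs, while astrocytes had 79.2, oligodendrocytes 13.5 and microglia 5.29. Choroid plexus cells and ependymal cells are neighbours in the ventricle, but their Mt1 levels were 601 and 8196 CPM. The choroid plexus was thus the class with most Mt3 for its Mt1 among the 10 named classes.

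**Figure D1:**
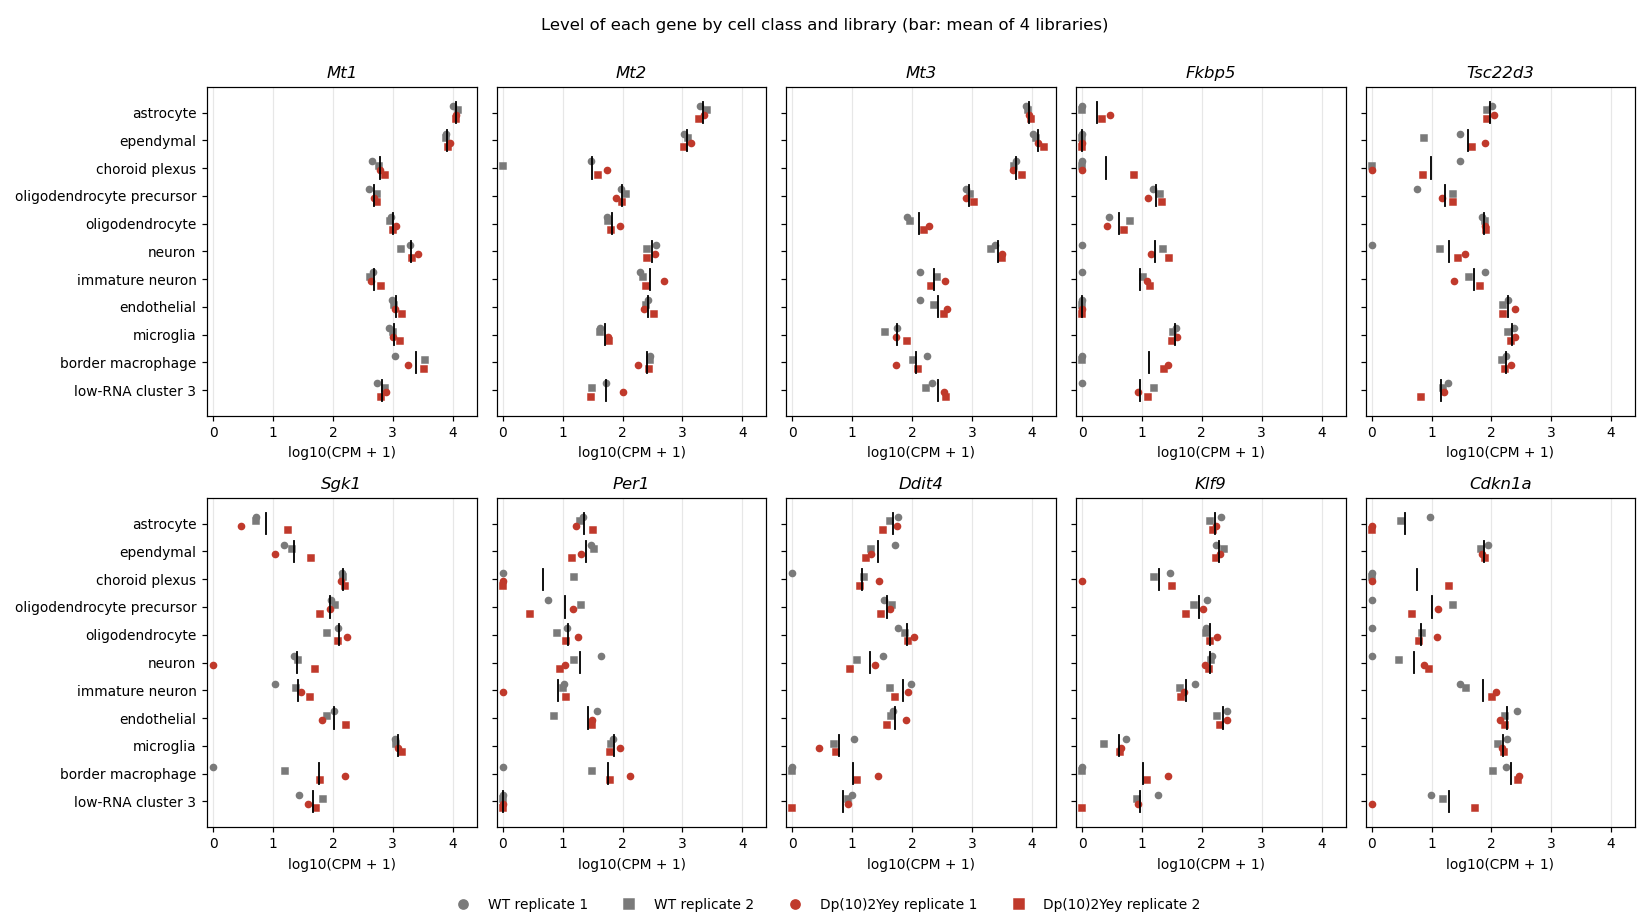
Level of each of the 10 genes in the 10 named cell classes and the low-RNA cluster, as log10(CPM + 1), with 1 point per library (grey WT, red Dp(10)2Yey, circle replicate 1, square replicate 2) and a bar at the mean of the 4 libraries. Mt1 and Mt2 peak in astrocytes, Mt3 in ependymal cells, and Sgk1 in microglia at 1209 CPM.

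RNA of abundant genes can reach droplets of other cells, and empty droplets were not in the files, so the metallothioneins were set beside 2 genes of astrocytes, the glutamate transporter Slc1a2 and the glycolytic enzyme Aldoc. In microglia Mt1 stood at 9.78% of its astrocyte level over all libraries, while Slc1a2 and Aldoc stood at 0.616 and 0.417%. Mt1 was between 8.35 and 11.5% in every library and the 2 astrocyte genes between 0.221 and 0.8%, with no overlap. Mt2 in microglia was at 2.37%, also above the range of the astrocyte genes, whereas Mt3 was at 0.653%, or 0.396 to 0.835% by library, and overlapped them. The Mt1 level in oligodendrocytes was 8.61% of that in astrocytes against 1.31 and 1.2% for the astrocyte genes, and in border macrophages it was 25.7% against 1.39 and 1.83%. Mt3 was again close to the astrocyte genes in both classes, at 1.47 and 1.3%.

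Neurons were different. There, over all libraries, Mt1 was at 16.7% of the astrocyte level and Mt2 at 13.2%, close to the 16.3% of Slc1a2 and of Aldoc. Mt3 was at 29.3%. By library Mt1 was at 11.2 to 23.4% and Mt2 at 9.99 to 18.6%. Slc1a2 was at 10.4 to 23.2% and Aldoc at 9.56 to 22.6%, so the ranges overlapped. In WT replicate 1, however, Mt1 and Mt2 were at 19.4 and 18.6% against 10.4 and 9.56%. In WT replicate 2 Mt1 was at 11.2%, below the 13.8% of Slc1a2. The Mt3 share exceeded the Slc1a2 share of neurons in each of the 4 libraries, at 24.2 to 35.3% against 10.4 to 23.2%. In the choroid plexus Mt3 was at 65.8% of the astrocyte level while Slc1a2 was at 0.309%. In ependymal cells it was at 149% while Slc1a2 was at 2.08%. The part of free RNA or of mixed droplets in the neuronal values was not tested.

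**Figure D2:**
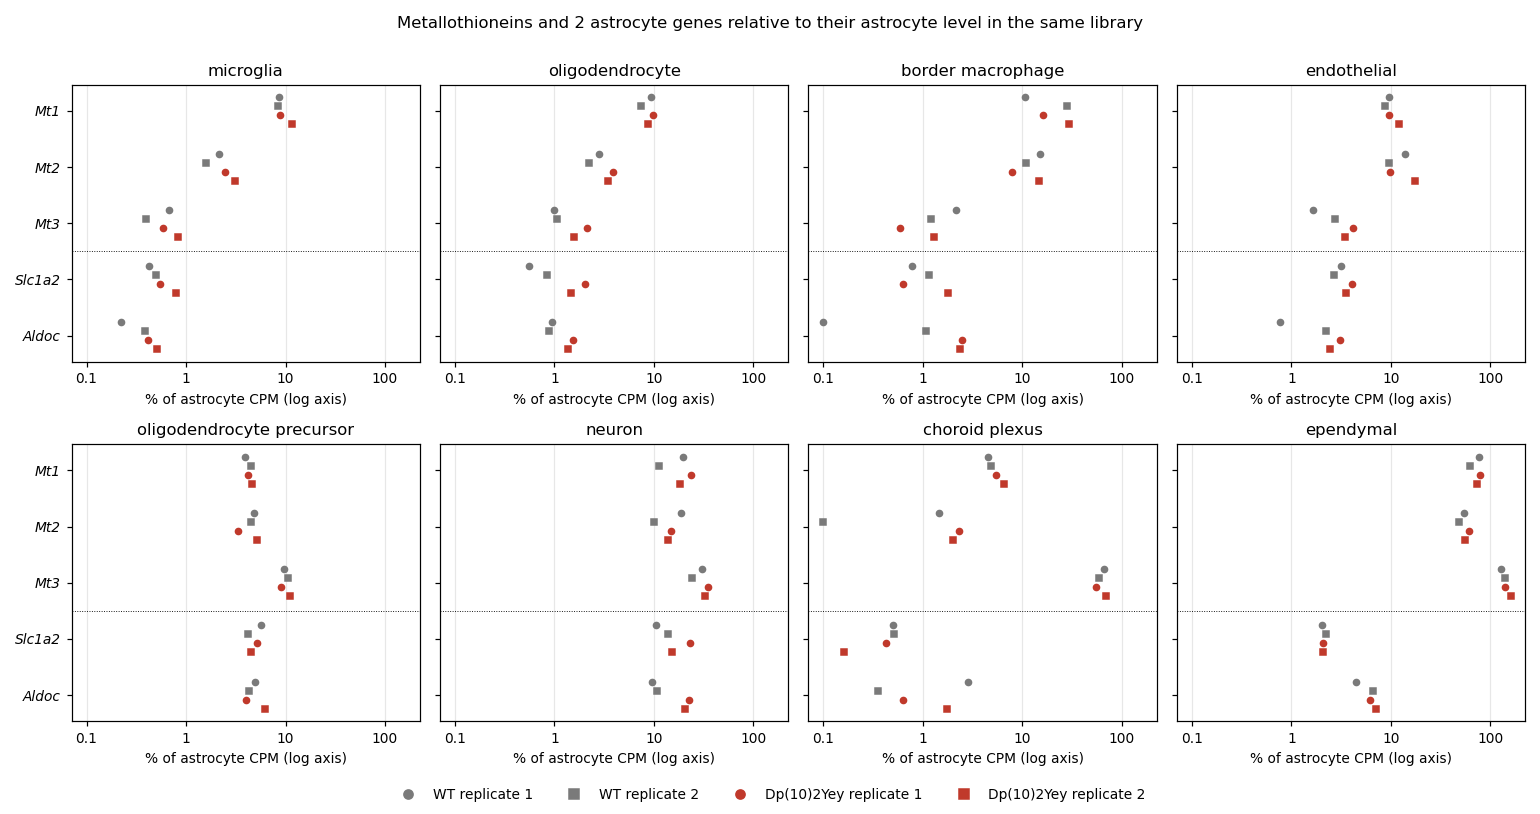
CPM of Mt1, Mt2 and Mt3 (above the dotted line) and of the astrocyte genes Slc1a2 and Aldoc (below it) in 8 classes, as a percentage of the astrocyte CPM of the same library on a log axis, with 1 point per library and values under 0.1% drawn at 0.1. In microglia Mt1 lies near 10% in every library while Mt3 lies with the astrocyte genes under 1%.

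Cells within the astrocyte class were compared next. After each cell was thinned to 1000 UMIs, the Spearman correlation of Mt1 with Mt3 was 0.525 and 0.723 for WT and 0.533 and 0.648 for Dp(10)2Yey, over 76 to 239 cells. That of Mt1 with Mt2 was 0.415 to 0.558, and that of Mt2 with Mt3 was 0.476 and 0.469 for WT and 0.209 and 0.337 for Dp(10)2Yey. These are descriptions of cells that share a library, a depth after thinning and a cluster. The median thinned astrocyte held 7 to 10 Mt1 UMIs, with a 90th percentile of 17 to 22. Correlations of the metallothioneins with Klf9 and Tsc22d3 in astrocytes were highest in WT replicate 1, the shallowest library with 76 cells, at 0.173 to 0.338. They stood between -0.091 and 0.122 in the other libraries. After thinning, Klf9 and Tsc22d3 UMIs were seen in 13.3 and 10.2% of astrocytes, and such sparse counts limit these correlations.

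Mt1 in border macrophages differed between libraries of the same genotype. Its level was 1075 and 3401 CPM in the WT libraries (replicates 1 and 2), and 1827 and 3379 CPM in the Dp(10)2Yey libraries. The high and low libraries fell in both genotypes. The 16 to 52 cells of each library, and the neutrophil markers present in Dp(10)2Yey libraries and at 0 in WT libraries, stand beside these values. The 18 oligodendrocyte markers in this class summed to 842.2 and 5436 CPM in WT and to 1018 and 3884 CPM in Dp(10)2Yey, high in the same libraries as Mt1. The part of these markers in the Mt1 values was not tested. Among 51 Cajal-Retzius neurons, a class too small to test, Mt1 reached 2499 CPM in Dp(10)2Yey replicate 2 against 141 to 969 CPM in the other libraries. That value rested on 1 cell of 26230 UMIs, which held 223 of the 253 Mt1 UMIs together with 236 Mt3 and 156 Slc1a2 UMIs, and without it the level was 399.8 CPM. The 969 CPM of WT replicate 1 also came mostly from 1 cell, which held 37 of the 40 Mt1 UMIs there and no Reln UMI.

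The glucocorticoid-response genes did not share a leading class. Sgk1 was a gene of microglia in these cells, at 1072 and 1132 CPM in WT and at 1227 and 1406 CPM in Dp(10)2Yey. The genotypes did not overlap for it. The next class was the choroid plexus at 144.6 ± 9.33 CPM (SD, n = 4), followed by oligodendrocytes at 124.6 ± 38.1, and these overlapped. At least 1 Sgk1 UMI was seen in 79.7% of microglia and, after thinning to 1000 UMIs, in 54.7%. In neurons the shares were 5.05 and 1.56%, at median depths of 4097 and 1764 UMIs in microglia and neurons.

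Fkbp5 and Per1, both classic targets of the glucocorticoid receptor, were low and also highest in microglia. Fkbp5 was at 36.5 and 31.8 CPM in WT microglia and 37.1 and 31.1 CPM in Dp(10)2Yey microglia, a range that no other class reached. Oligodendrocyte precursors came next at 16.3 ± 4.15 CPM (SD, n = 4). In astrocytes 0, 0, 1 and 1 Fkbp5 UMIs were counted in the 4 libraries, and the 0 of the WT libraries allows a level of up to 12.4 and 6.17 CPM by counting error. Per1 was at 70.1 ± 13.2 CPM (SD, n = 4) in microglia and overlapped border macrophages at 55.2 ± 56 CPM.

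Tsc22d3 was shared by the immune and vascular classes. It stood at 221 ± 25.1 CPM in microglia, 184.7 ± 42 in endothelial cells and 174.1 ± 25.5 in border macrophages (SD, n = 4), which overlapped, and at 93.9 ± 13.5 CPM in astrocytes, which did not overlap border macrophages. Klf9 avoided the immune cells. It was at 224.6 ± 44.4 CPM in endothelial cells, 195.2 ± 29.6 in ependymal cells, 167.6 ± 32.8 in astrocytes, 136.6 ± 29.2 in oligodendrocytes and 134.1 ± 17.1 in neurons, each overlapping the next, whereas microglia held 1.31 to 4.45 CPM, from 3 to 11 UMIs a library. In cells thinned to 1000 UMIs, Klf9 in neurons was at 59.9 CPM, below oligodendrocyte precursors at 76.5 CPM. Ddit4 was highest in oligodendrocytes at 80.3 ± 20.1 CPM and overlapped immature neurons at 68.1 ± 25.9 CPM. Cdkn1a was at 211.4 ± 88.3 CPM in border macrophages, 182.7 ± 55.4 in endothelial cells and 153.2 ± 20.8 in microglia, which overlapped, and at 73.5 CPM or less in the other classes. With cells thinned to 1000 UMIs the order of these classes turned, to 164 CPM in endothelial cells, 150.8 in microglia and 119 in border macrophages.

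Microglia therefore led the order for Sgk1, Fkbp5, Per1 and Tsc22d3, overlapping the next class for Per1 and Tsc22d3. Endothelial cells led the order for Klf9 and came second for Tsc22d3, and they held 0 Fkbp5 UMIs in all 4 libraries, which allows up to 9.07 to 17.8 CPM a library by counting error. Across the 40 class-by-library values of the named classes, the correlation of log2(CPM + 10) was 0.80 between Mt1 and Mt2, 0.53 between Mt1 and Mt3, 0.54 between Sgk1 and Fkbp5 and -0.45 between Sgk1 and Klf9. The points share libraries and classes, and these values are descriptions. Among 13803 genes, the profiles most like those of the metallothioneins were Gstm1 and Mlc1 for Mt1 (r = 0.894 and 0.885), Gja1 and Pla2g7 for Mt2 (0.876 and 0.865) and Clu and Abat for Mt3 (0.936 and 0.925). Those most like the others were Ube2d3 and Abi3 for Sgk1 (0.780 and 0.771), Myc and Nav3 for Fkbp5 (0.824 and 0.814), Mknk2 and Tspan14 for Tsc22d3 (0.822 and 0.790), Zc3h12a and Csf3r for Per1 (0.779 and 0.763), Zfp664 and Afdn for Ddit4 (0.788 and 0.784), Prnp for Klf9 (0.884) and Txnip and Msn for Cdkn1a (0.894 and 0.883).

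Cells within microglia were compared in the same way, over 6 members. The Spearman correlation of Sgk1 with Tsc22d3 after thinning ranged from -0.012 to 0.102 over the 4 libraries, and that of Mt1 with Sgk1 from -0.129 to 0.084. The highest value of any pair in any library was 0.188, between Tsc22d3 and Per1 in WT replicate 1, where that of Sgk1 with Per1 was 0.149. In the other 3 libraries these pairs stood between -0.061 and 0.044. After thinning, a UMI was seen in 18.4% of microglia for Tsc22d3, 8.81% for Cdkn1a, 6.53% for Per1 and 3.37% for Fkbp5. Counts this sparse keep such correlations near 0, so these values do not show whether the members vary together between cells.

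Dp(10)2Yey cells were then compared with WT cells, first with the counts of all cells of a library summed (2 libraries per genotype). No member passed an adjusted p of 0.01 in edgeR's quasi-likelihood test, nor did any of the 13803 genes tested (0% called). At an unadjusted p under 0.05 the count was 1 of 10 members and 390 genes (2.83%), and DESeq2 called 0 members and 4 genes. By class, the same test called 0 of the 59 pairs of a member and a class and 17 of all 50184 pairs of a gene and a class (0.0339%). At an unadjusted p under 0.05 there were 10 of the 59 and 3.57% of all pairs. The 59 pairs repeat the same genes and libraries over classes and are not independent. Mt3 was among the 10 in endothelial cells, microglia, oligodendrocytes and the low-RNA cluster. DESeq2 called 0 of the 59 and 9 of all 50184 pairs, with 4 of the 59 under an unadjusted p of 0.05. An exact permutation test of 2 against 2 libraries cannot give a two-sided p below 0.33.

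Over all cells, the 3 metallothioneins and Sgk1 were higher in both Dp(10)2Yey libraries than in both WT libraries, as were 13.1% of all genes. Non-overlap in either direction was found for the same 4 of 10 members and for 26.4% of all genes. Mt3 was at 1415 and 1235 CPM in WT and 1587 and 2060 CPM in Dp(10)2Yey (log2 fold change 0.45, SE 0.16, unadjusted p = 0.0222, adjusted p = 1 in edgeR), and without Dp(10)2Yey replicate 2 the fold change was 0.29. Mt1 was at 1934 and 1952 CPM against 2272 and 2523 CPM (0.30, SE 0.14), and Mt2 at 287.2 and 300 CPM against 364.9 and 315.9 CPM (0.21, SE 0.14). Sgk1 was at 459.1 and 430.8 CPM against 484.5 and 593.1 CPM (0.27, SE 0.14). The other 6 members overlapped between the genotypes, with log2 fold changes of -0.02 to 0.18. Dp(10)2Yey replicate 2, the highest library for Mt1, Mt3 and Sgk1, also had the lowest median share of mitochondrial UMIs, 3.43% against 5.70 to 5.91% in the others, and its part in these values was not tested. A sum over all cells moves with the shares of the classes as well as with the level within them, and these cannot be told apart in it. Astrocytes held 241453 of 2939108 and 486048 of 6721578 UMIs in the WT libraries. In the Dp(10)2Yey libraries they held 516833 of 5008065 and 839147 of 8838437 UMIs, a larger share in both than in either WT library. The part of this share in the metallothionein values was not tested.

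In astrocytes, the class with most Mt1 and Mt2, none of the 7 members tested was under an unadjusted p of 0.05 in edgeR. Of them only Mt3 did not overlap, at 8053 and 8567 CPM in WT and 8974 and 9791 CPM in Dp(10)2Yey, against 32.7% of genes not overlapping in that class. The log2 fold changes were 0.01 (SE 0.21) for Mt1, -0.15 (SE 0.20) for Mt2 and 0.15 (SE 0.20) for Mt3. In ependymal cells they were 0.15 (SE 0.30), 0.04 (SE 0.24) and 0.31 (SE 0.32), with 2 of 5 members tested not overlapping against 29.7% of genes. In the choroid plexus Mt3 was at 5325 and 5014 CPM in WT and 4893 and 6809 CPM in Dp(10)2Yey, and overlapped. The other member tested there, Mt1, was at 453.2 and 588.1 CPM against 615 and 748.2 CPM and did not overlap (0.21, SE 0.29), beside 30.3% of genes.

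In oligodendrocytes, the cells that make myelin, all 8 members tested were above 0, with a median log2 fold change of 0.43 against -0.004 over the 8600 genes tested. Of them 6 did not overlap, each higher in Dp(10)2Yey, as were 15.1% of genes, with 29.4% of genes not overlapping in either direction. At an unadjusted p under 0.05 there were 4 of 8 members and 2.66% of genes. Mt3 was at 80.6 and 91 CPM in WT and at 188.4 and 154.2 CPM in Dp(10)2Yey, a log2 fold change of 0.96 (SE 0.18, unadjusted p = 7.37e-05, adjusted p = 0.221 in edgeR). Sgk1 was at 122.7 and 79.8 CPM against 172.9 and 122.9 CPM (0.61, SE 0.22), with 1 Dp(10)2Yey library barely above the higher WT library. Klf9 was at 115.3 and 116.4 CPM against 177.8 and 136.8 CPM (0.42, SE 0.17), and Ddit4 at 56.8 and 75.1 CPM against 105.2 and 84.1 CPM (0.45, SE 0.21). Each of the latter 3 had an adjusted p of 1 in edgeR. Their values moved with single libraries: without Dp(10)2Yey replicate 1 they were 0.37 for Sgk1, 0.24 for Klf9 and 0.28 for Ddit4, and without WT replicate 2 they were 0.27 for Sgk1 and 0.73 for Ddit4.

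For the oligodendrocyte Mt3 value, the astrocyte markers moved in the same order. The 23 astrocyte markers summed to 642.5 and 733.4 CPM in WT oligodendrocytes and to 1145 and 993.6 CPM in Dp(10)2Yey oligodendrocytes, with 0 to 7 of them at 0, and Slc1a2 was at 62.2 and 96.3 CPM against 256.9 and 169.3 CPM. The order of the 4 libraries was the same for Mt3 and for the summed markers, and their part in the difference was not tested. Microglia markers in oligodendrocytes were at 259.9 and 842.1 CPM in WT and 158.2 and 1276 CPM in Dp(10)2Yey, and their part in the Sgk1 values was not tested. Without a filter on low counts the adjusted p of Mt3 in edgeR was 0.000341, and 145 of all 146071 pairs of a gene and a class were then called. In DESeq2 with all libraries the adjusted p of Mt3 was 0.949. Without Dp(10)2Yey replicate 2, which leaves 1 library of that genotype, the fold change was 1.085 for Mt3 and 0.854 for Sgk1. Without each other library in turn, that of Mt3 was 0.82 to 1.09.

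**Figure D3:**
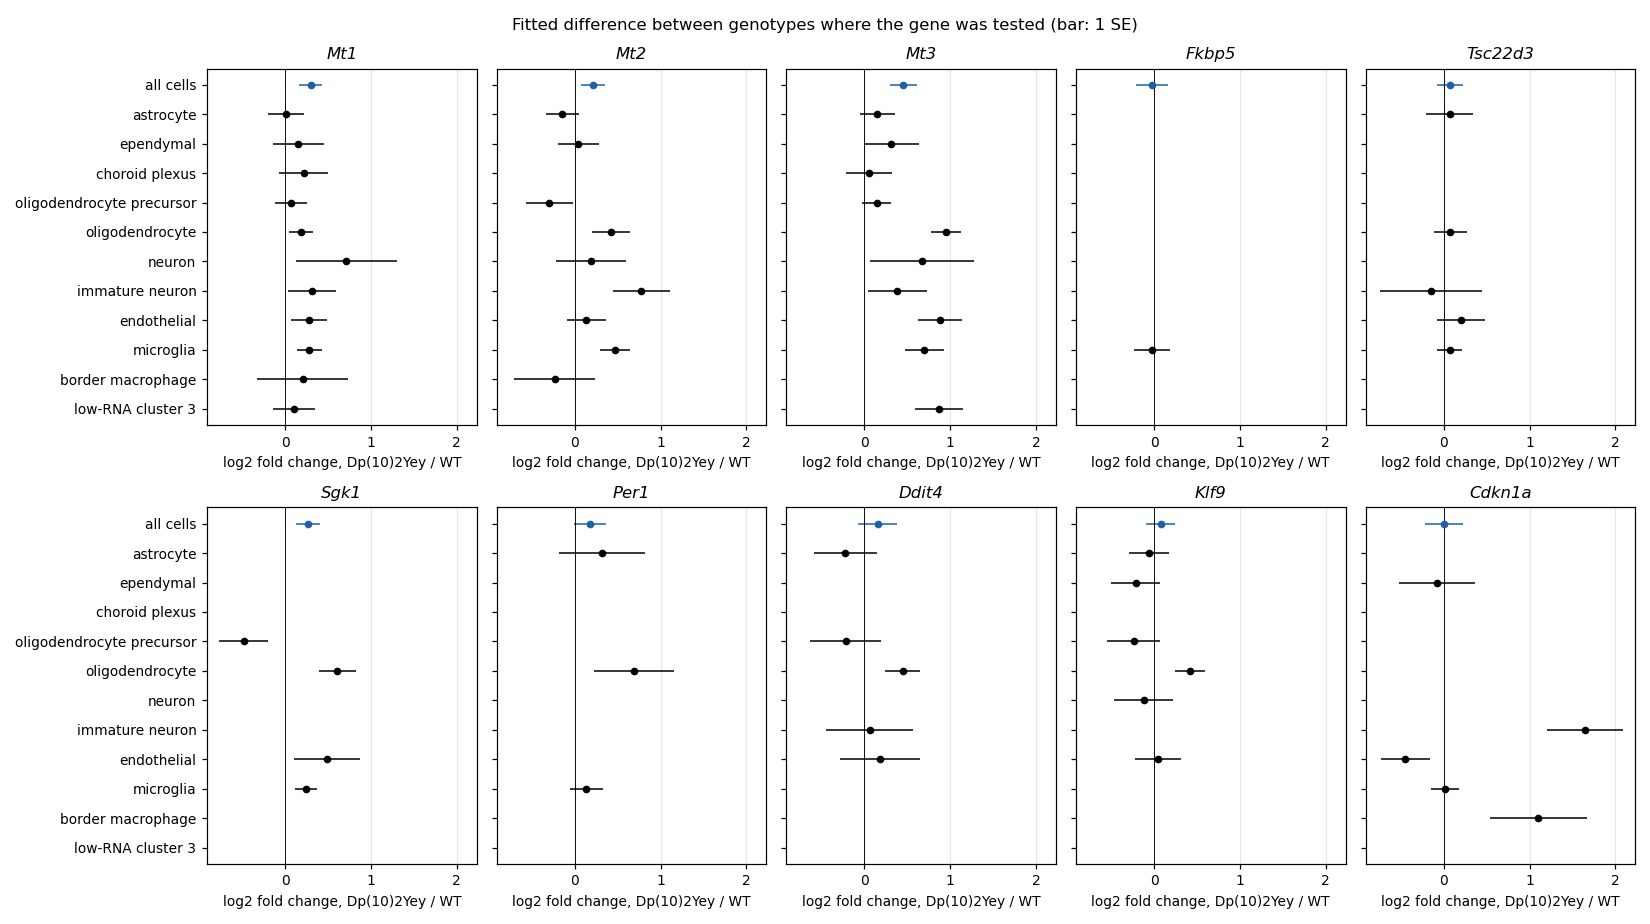
Log2 fold change of Dp(10)2Yey over WT for each member in all cells (blue) and in each class where it was tested (black), with bars of 1 SE from edgeR. In oligodendrocytes every tested member lies above 0, at 0.08 to 0.96, whereas the astrocyte values of Mt1, Mt2 and Mt3 lie between -0.15 and 0.15.

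Mt3 was also higher in both Dp(10)2Yey libraries in endothelial cells, the low-RNA cluster and neurons. In endothelial cells Mt3 was at 134.2 and 232.7 CPM in WT and 374.5 and 335.7 CPM in Dp(10)2Yey (0.88, SE 0.26, unadjusted p = 0.00632, adjusted p = 1 in edgeR), and without WT replicate 2 the fold change was 1.38. The summed astrocyte markers there were 3469 and 3268 CPM against 4369 and 4131 CPM, with 0 to 3 of 23 at 0. Markers of pericytes and smooth muscle, the other cells of the vessel wall, were at 3614 and 3305 CPM in WT endothelial cells and at 7472 and 5882 CPM in Dp(10)2Yey endothelial cells. In the low-RNA cluster Mt3 was at 211.3 and 169.9 CPM against 342.6 and 371.2 CPM (0.87, SE 0.28, unadjusted p = 0.00461, adjusted p = 0.546 in edgeR), beside astrocyte markers of 334.6 and 502.4 CPM against 578.6 and 674 CPM, with 3 to 11 of 23 at 0. In neurons Mt3 was at 2427 and 2069 CPM against 3167 and 3206 CPM (0.67, SE 0.61), beside 3368 and 4170 CPM of astrocyte markers against 7269 and 5480 CPM. The part of these markers in the Mt3 values was not tested. Not overlapping were 2 of 8 members in endothelial cells, 1 of 2 in the low-RNA cluster and 3 of 4 in neurons, against 33.7, 30.6 and 25.1% of genes in these classes.

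In microglia 2 of 8 members did not overlap, against 30.2% of genes, and 2 were under an unadjusted p of 0.05, against 3.02%. Mt2 was at 41.8 and 40.5 CPM in WT and at 57.1 and 58.1 CPM in Dp(10)2Yey, so libraries of a genotype were within 2 CPM of each other (log2 fold change 0.47, SE 0.18, unadjusted p = 0.017, adjusted p = 1 in edgeR). Sgk1 differed by 0.24 (SE 0.13). Mt3 was at 54.2 and 33.9 CPM against 52.4 and 81.8 CPM and overlapped (0.70, SE 0.23), with Dp(10)2Yey replicate 2 the highest library for Mt3 and for summed astrocyte markers, at 385 CPM against 279.7 to 328 CPM in the others. Leaving out either replicate 2 moved the Mt3 value to 0.34 (WT) or 0.31 (Dp(10)2Yey). The summed astrocyte markers in microglia were at 322.8 and 279.7 CPM in WT and at 328 and 385 CPM in Dp(10)2Yey. Slc1a2 was at 47.1 and 57.9 CPM against 68.3 and 93.2 CPM. The part of these astrocyte genes in the Mt2 and Mt3 values was not tested. Fkbp5, Tsc22d3, Per1 and Cdkn1a in microglia overlapped and had log2 fold changes of -0.03 to 0.13.

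**Figure D4:**
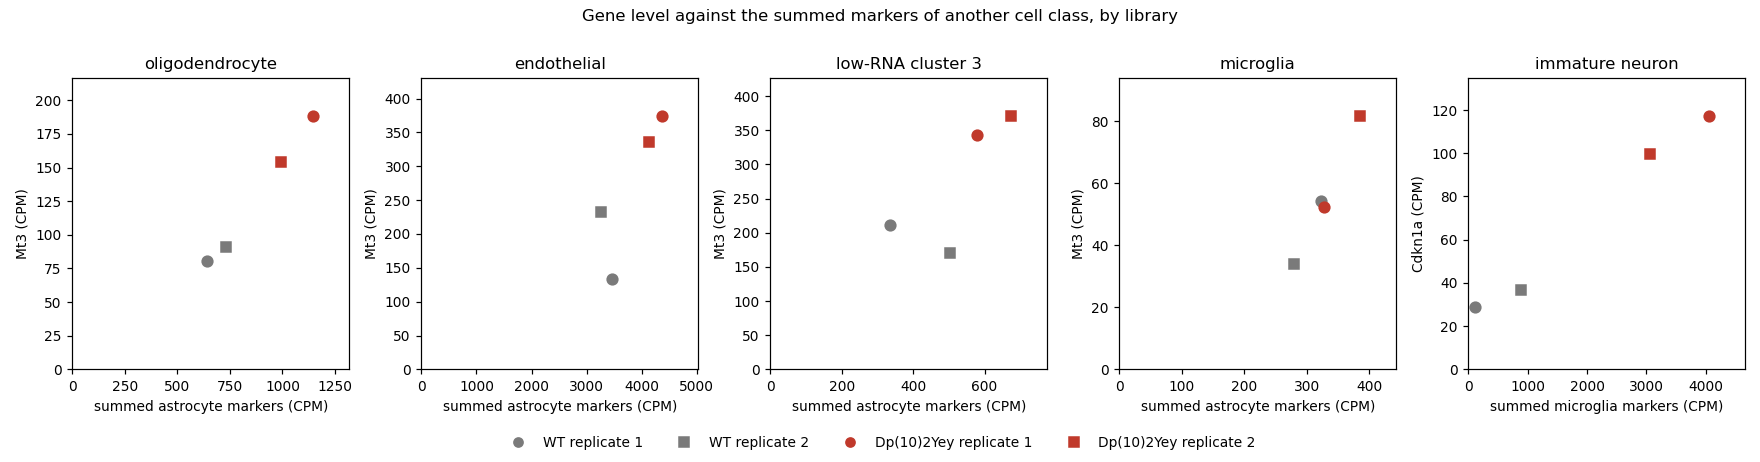
CPM of Mt3 against the summed CPM of 23 astrocyte markers in 4 classes, and CPM of Cdkn1a against the summed CPM of 22 microglia markers in immature neurons, with 1 point per library and axes from 0. In oligodendrocytes and immature neurons the libraries have the same order on both axes, and the Dp(10)2Yey libraries are high on both.

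In immature neurons, a class that dividing-cell markers such as Top2a also led, Cdkn1a had the largest log2 fold change of the 59 pairs. It was at 28.7 and 37 CPM in WT, from 3 and 8 UMIs, and at 117.3 and 99.6 CPM in Dp(10)2Yey, from 21 and 39 UMIs (1.65, SE 0.44, unadjusted p = 0.00243, adjusted p = 0.264 in edgeR). The groups did not overlap. The 22 microglia markers in this class summed to 105.3 and 887.1 CPM in WT, with 15 and 2 of them at 0, and to 4056 and 3058 CPM in Dp(10)2Yey, with none at 0. Markers of oligodendrocyte precursors had the opposite order of genotypes, at 2911 and 2897 CPM in WT and 1581 and 1256 CPM in Dp(10)2Yey. Dividing-cell markers were at 1762 and 6094 CPM in WT and 4822 and 4418 CPM in Dp(10)2Yey. Nfkbia, an inhibitor of the inflammatory factor NF-kB that microglia express, was at 38.3 and 32.3 CPM against 212.3 and 191.4 CPM (2.54, SE 0.39, adjusted p = 0.0109 in edgeR). The part of these other cells' RNA in either gene was not tested. Mt2 was at 191.5 and 221.8 CPM against 486.1 and 250.1 CPM (0.77, SE 0.33, unadjusted p = 0.0358, adjusted p = 1 in edgeR), and the fold change was 0.33 without Dp(10)2Yey replicate 1 and 1.17 without replicate 2 of that genotype. Of 6 members tested 2 did not overlap, against 31.7% of genes.

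In border macrophages Cdkn1a was at 174.3 and 104 CPM in WT and 287.2 and 280.2 CPM in Dp(10)2Yey (1.10, SE 0.57, unadjusted p = 0.0663, adjusted p = 1 in edgeR), from 6 to 51 UMIs a library and beside the neutrophil markers given above. There 2 of 3 members did not overlap, against 29.3% of genes. In oligodendrocyte precursors, the dividing relatives of oligodendrocytes, 2 of 6 members tested were above 0, beside 50.1% of all genes, and Sgk1 was at 93.5 and 107.7 CPM in WT and 88.1 and 61 CPM in Dp(10)2Yey (-0.48, SE 0.29). Of these 6 members 1 did not overlap, against 31.2% of genes.

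Whether the genotype difference of a gene varied between classes was tested in 1 edgeR fit over the 10 named classes. Of 11010 genes, 62 passed an adjusted p of 0.01 (0.563%), and none of the 10 members did. Cdkn1a came nearest, with an unadjusted p of 0.000285 and an adjusted p of 0.0397 in edgeR, and the other 9 had an adjusted p of 1. For Cdkn1a the adjusted p was between 0.0403 and 1 when a library was left out, and the value of 1 was without WT replicate 1. The Mt3 differences of 0.96 in oligodendrocytes and 0.15 in astrocytes, both on the log2 scale, are therefore not shown to differ between these classes.

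Related gene lists were read in the same fits. Over all cells, none of the genes tested from lists of glucocorticoid receptors and cofactors (9), other glucocorticoid-induced genes (18), zinc homeostasis (17), the circadian clock (16), p53 targets (13), the integrated stress response (7) and the dissociation response (19) passed the threshold in edgeR, with 1, 2, 2, 0, 1, 0 and 1 under an unadjusted p of 0.05, beside 2.83% of all genes. The list medians were 0.05, -0.05, 0.00, 0.02, -0.11, 0.04 and 0.00 on the log2 scale. The glucocorticoid receptor gene Nr3c1 was at 179.4 and 149.1 CPM in WT and 167 and 145.8 CPM in Dp(10)2Yey, and its chaperones Hsp90ab1, Ptges3 and Fkbp4 also overlapped. Within astrocytes 7 of the 9 receptor and cofactor genes were above 0, beside 50.3% of all genes. Their median was 0.16 against 0.003 over all genes. Of the 9, 6 did not overlap, against 32.7% of genes in that class. Nr3c1 there was at 215.4 and 152.3 CPM against 120 and 120.4 CPM (-0.59, SE 0.23, unadjusted p = 0.0128, adjusted p = 0.999 in edgeR). The co-chaperone Stip1 was also lower, at 66.3 and 61.7 CPM against 27.1 and 39.3 CPM (-0.92, SE 0.34), and Hsd11b1 higher, at 281.7 and 316.9 CPM against 495.4 and 387.4 CPM (0.52, SE 0.20), each with an adjusted p of 0.999 in edgeR. The gene of the list under an unadjusted p of 0.05 over all cells was again Hsd11b1, whose enzyme regenerates active corticosterone. It was at 26.2 and 24.9 CPM against 54.3 and 39.3 CPM (0.86, SE 0.20, unadjusted p = 0.00243, adjusted p = 1 in edgeR). The level of Hsd11b1 was higher in astrocytes than over all cells, and astrocytes held a larger share of UMIs in both Dp(10)2Yey libraries. The part of that share in the all-cell Hsd11b1 value was not tested. Of the other induced genes, Glul, Nfkbia and Mertk overlapped, and Dusp1, a phosphatase that switches off MAP kinases, was lower in both Dp(10)2Yey libraries, at 835.8 and 672.8 CPM against 629.5 and 664 CPM (-0.23, SE 0.15). In oligodendrocytes Dusp1 was instead higher, at 64.1 and 72.1 CPM against 128 and 118.8 CPM (0.82, SE 0.18, unadjusted p = 0.000441, adjusted p = 0.291 in edgeR). Over all cells, those under an unadjusted p of 0.05 were Fam107a (0.46, SE 0.19) and Lcn2, which was at 1.02 and 0.298 CPM against 1.80 and 4.53 CPM (2.55, SE 0.77), each with an adjusted p of 1 in edgeR. Lcn2 is also 1 of the 7 neutrophil markers, which in border macrophages were at 0 CPM in WT and present in Dp(10)2Yey as given above, and their part in the Lcn2 value was not tested. Hsd11b1, Fam107a, Lcn2, Slc39a8, the astrocyte values of Nr3c1 and Stip1 and the oligodendrocyte value of Dusp1 were chosen after their values were seen. The zinc importers Slc39a10 and Slc39a1 overlapped, whereas Slc39a12, an importer of astrocytes, was at 31.3 and 33.5 CPM against 45.1 and 47.3 CPM (0.50, SE 0.14, unadjusted p = 0.00746, adjusted p = 1 in edgeR). This is a value over all cells, and astrocytes held a larger share of UMIs in both Dp(10)2Yey libraries, as given above. The part of that share in the all-cell values of Slc39a12 and Fam107a was not tested. The importer Slc39a8 was at 12.9 and 12.8 CPM against 6.79 and 9.85 CPM (-0.61, SE 0.27, unadjusted p = 0.0488, adjusted p = 1 in edgeR). Clock output genes Dbp, Tef and Hlf and the repressor Bhlhe41 had log2 fold changes of 0.01 to 0.23.

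Across the 4 libraries, the highest level over all cells divided by the lowest had a median of 1.34 for the 10 members, 1.35 for all genes tested, 1.28 for the receptors and cofactors and 1.49 for the dissociation response. Within astrocytes it was 1.37 for the 7 members tested and 1.62 for all genes. The members lay above all genes in oligodendrocytes (1.74 against 1.47), immature neurons (2.56 against 1.76), border macrophages (2.76 against 1.99), endothelial cells (1.76 against 1.66), the low-RNA cluster (1.81 against 1.64) and microglia (1.41 against 1.40). They lay below in neurons (1.48 against 2.30), ependymal cells (1.32 against 1.68), the choroid plexus (1.52 against 1.77) and oligodendrocyte precursors (1.52 against 1.58). The immediate early genes Jun and Fos, which dissociation raises, were at 3056 and 2845 CPM in WT replicate 1 and at 2766 and 2547 CPM in replicate 2 of that genotype. For Dp(10)2Yey they were at 2455 and 2320 CPM in replicate 1 and at 3501 and 2850 CPM in replicate 2. In oligodendrocytes 16 of 18 dissociation response genes were above 0, with a median of 0.24, beside the 8 of 8 members and 49.3% of all genes above 0. In astrocytes 7 of 7 dissociation response genes were above 0, with a median of 0.73, beside a median of 0.01 for the members and 50.3% of all genes above 0. The part of dissociation in the members' values was not tested.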

How the data were processed

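Single-cell libraries of 4 hippocampi were analysed from the counts that the authors deposited: whole-number UMI counts per gene and barcode, made with Cell Ranger 3.0.2 against a custom mm10 reference and not normalized. The members and lists were chosen with earlier results of these data known. As in the study, barcodes needed 200 genes and a gene had to be seen in more than 3 cells (17535 genes). Barcodes with over 20% globin UMIs were removed, a rule set after seeing the data in place of the study's removal of red blood cell clusters. Seurat 5.3.0 in R 4.3.3 integrated the libraries (canonical correlation, 2000 variable genes, 50 dimensions, resolution 0.2), giving 16 clusters. Mt1, Mt2, Mt3, Sgk1 and Cdkn1a were among the genes used, so class levels are descriptions. Clusters were named from markers by a rule adjusted after the clusters were seen. Scrublet in scanpy 1.11.5 called 60 doublets (0.96%), which were kept. Barcode sequences shared between libraries numbered 8.

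UMIs were summed per class and library and tested with edgeR 4.0.16 (quasi-likelihood, TMM, filterByExpr, 2 against 2 libraries), with Benjamini-Hochberg adjustment over all genes of a fit and a threshold of 0.01. DESeq2 1.42.0 was an alternative. The tests were run on simulated data with 200 changed genes. Every gene was given the same preset spread between libraries, with no effect of day. That spread was not estimated from these libraries, so the shares recovered are not the power of these data. A 4-fold change was recovered for 96% of changed genes in all cells, 94.8% in microglia, 88.5% in oligodendrocytes and 86% in immature neurons, and a 2-fold change for 43.4, 24.2, 35.1 and 21.6%. Depth was 2939108 to 8838437 UMIs per library, and intervals and limits cover counting error only. Named genes were the 10 members, the list genes past the threshold or the 4 most abundant of a list, and the 2 genes most like each member, of which 1 is not reported here. Slc1a2, Aldoc and the unlisted details of single cells were chosen after values were seen. Annotated transcripts overlap Mt2, Fkbp5, Klf9 and Cdkn1a, and reads common to Mt1 and Mt2 cannot be separated here. Alternatives were other size factors, no filter on low counts, a replicate block, a threshold of 0.05, removal of doublets, of cells over 20% mitochondrial and of each library, and other clusterings.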

Additional observations from a re-analysis of the deposited data

How the results depend on the processing

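No member was called in all cells under any alternative that was run. By cell class, among fits with 2 libraries in each group, the members called were 0 in the analysis as reported. They were 1 without a filter on low counts (Mt3 in oligodendrocytes). Over all genes, the pairs called went from 17 of 50184 to 145 of 146071 without that filter. Leaving out a library leaves 1 library in a group, so fold changes alone are given here for those fits by class. Without Dp(10)2Yey replicate 2 the oligodendrocyte fold changes were 1.085 for Mt3 and 0.854 for Sgk1. At an adjusted p of 0.05 the other lists had 1 gene called in place of 0, which was Nfkbia in immature neurons. The 11 fold changes followed through the alternatives are the members' values under an unadjusted p of 0.05 (edgeR). For 10 of them the genotypes do not overlap, so that leaving out a library cannot turn their direction. The 11 fold changes had 129 alternative estimates, of which that of Mt3 in oligodendrocytes without a filter on low counts had an adjusted p of 0.000341 (edgeR). Leaving out a library gave 0.29 to 0.61 for Mt3 in all cells, 0.82 to 1.09 for Mt3, 0.27 to 0.86 for Sgk1, 0.28 to 0.73 for Ddit4 and 0.24 to 0.60 for Klf9 in oligodendrocytes, 0.31 to 0.98 for Mt3 in microglia, 0.59 to 1.38 for Mt3 in endothelial cells, 0.33 to 1.17 for Mt2 in immature neurons and 1.55 to 1.89 for Cdkn1a there. The median of the duplicated segment was 0.56 to 0.66. With the replicate number as a block, the calls of members stayed at 0 in all cells and by class, the segment median was 0.58 and the genes called by class went from 17 to 57, with Mt3 in oligodendrocytes at 0.91 (adjusted p = 0.0151, edgeR) and in microglia at 0.72 (adjusted p = 0.0232). The numbers are not known to pair the samples. Same-numbered libraries had deviations correlated at 0.002 over all cells and at -0.24 to 0.244 by class. The value was 0.235 in oligodendrocytes and 0.156 in microglia, and below 0 in the choroid plexus and immature neurons. A crossed pairing was run only in the choroid plexus, the class with the lowest value, chosen after seeing the data. It called 13 genes against 0, and it cannot tell which libraries share a day. A block could not be fitted in the test across classes, which has library terms. Cdkn1a in border macrophages was at 119 CPM in cells thinned to 1000 UMIs and 211.4 CPM as reported, and the cause was not tested. The other 9 members' leading levels moved by less than 1 SD under thinning and under clustering without the members. Depth limits the classes of few cells, where Cdkn1a in border macrophages rests on 6 to 51 UMIs a library.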
